A study of Mus musculus with 12 samples.

Results

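The genes described are 10 members of the p53 pathway and of the cyclin-dependent kinase (CDK) inhibitor families: Trp53, Mdm2, Cdkn1a, Ccng1, Trp53inp1, Sesn1, Cdkn1b, Cdkn2a, Cdkn2b and Cdkn2c. They were chosen by name, as the rows whose Ensembl identifier maps to these symbols, and are 10 of the 48709 genes in the deposited count tables. All 10 passed the filter on low counts, which left 14408 genes for testing. RNA was sequenced from embryonic fibroblasts of C57BL/6 mice grown in culture, with 3 samples in each of 4 groups. Wild-type (WT) and TAZKo cells were each held in normoxia or exposed to hypoxia for 24 hours. The series describes the TAZKo cells as lacking tafazzin, the enzyme of mitochondrial cardiolipin remodeling encoded by Taz, and the WT cells as isogenic. The labels do not give the oxygen level, how the Taz gene was disrupted, the number of clones, or whether the cells were primary or immortalised.

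The transcription factor p53, encoded by Trp53, is kept low by the ubiquitin ligase Mdm2 and accumulates as a protein after DNA damage and other stresses. It then raises transcription of genes that stop the cell cycle, such as Cdkn1a, and of Mdm2 itself, which closes a feedback loop. CDK inhibitors bind cyclin-CDK complexes (the Cip/Kip proteins, from Cdkn1a and Cdkn1b) or CDK4 and CDK6 (the INK4 proteins, from Cdkn2a, Cdkn2b and Cdkn2c). In fibroblast culture, loss of Trp53 or of the Cdkn2a locus is a common way to escape senescence, so the levels of both genes bear on how comparable the WT and TAZKo lines are. Transcript counts do not show protein levels or point mutations.

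Total counts ran from 21039451 to 31204510 per sample, and 3 counts were worth 0.0927 to 0.150 CPM (counts scaled to the size of the library). Log2 differences, their standard errors (SE) and adjusted p-values come from edgeR except where DESeq2 is given, with 0.05 as the threshold. The Taz transcript was not lower in the libraries labelled TAZKo: it was higher, with a log2 difference of 0.29 ± 0.08 (SE) in normoxia, at an edgeR adjusted p of 0.0139, and of 0.43 ± 0.08 in hypoxia, at 0.00112. A gene count cannot show a small disrupting mutation, so Taz does not check the labels here. WT normoxia sample 1 stood apart from the other samples of its group (chi-square per degree of freedom 34.6 and 41.6, against 5.54 between samples 2 and 3). So did WT hypoxia sample 1 (13.1 and 13.6, against 3.62) and, at lower values, TAZKo normoxia sample 1 (8.21 and 10.6, against 2.82). Without WT normoxia sample 1, the members called in the 5 comparisons numbered 3 and 3 between the lines, 10 in WT and 9 in TAZKo with hypoxia, and 1 for the difference between the responses. Without WT hypoxia sample 1 they numbered 3, 3, 9, 8 and 2, and without TAZKo normoxia sample 1 they numbered 3, 3, 9, 7 and 1.

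The 8 fibroblast markers, mostly Fn1, Col1a1 and Vim, summed to 10007 to 13050 CPM over the samples. However, single markers differed between the lines in opposite directions. Of the 7 tested, 4 were higher and 2 lower in TAZKo in normoxia, and 3 higher and 2 lower in hypoxia. Col1a1 had 2835 ± 402 CPM in WT and 1153 ± 14.3 CPM in TAZKo in normoxia (SD, n = 3), and Pdgfrb had 49.6 ± 4.31 and 104 ± 6.63 CPM. Col1a2 was far lower than Col1a1, with 5.33 ± 0.595 and 2.12 ± 0.568 CPM, and Thy1 had 2 to 8 counts over all samples. Of the markers of other lineages, Ptprc, Adgre1, Cdh5, Myod1 and Myog had at most 3 counts in every sample. The 4 epithelial markers, almost all from Krt18, summed to 122 to 152 CPM in WT normoxia, 97.9 to 105 CPM in TAZKo normoxia and 117 to 139 CPM in hypoxia, and Epcam had up to 17 counts. The 3 skeletal muscle markers, almost all from Des, summed to 2.85 to 4.95 CPM in WT samples and 5.53 to 10.1 CPM in TAZKo samples. The 4 endothelial markers, mostly from Tek, summed to 14.5 to 21.01 CPM in WT samples and 3.84 to 7.45 CPM in TAZKo samples. Of the 3 tested, 2 were lower and 1 higher in TAZKo in normoxia (0 higher with DESeq2), and 2 were lower in hypoxia. The higher one was Pecam1, with 0.227 ± 0.123 CPM in WT and 0.577 ± 0.0624 CPM in TAZKo normoxia (SD, n = 3). The 4 macrophage markers, almost all from Cd68 and Csf1r, summed to 4.42 to 5.57 CPM in normoxia and 7.99 to 13.8 CPM in hypoxia. The part of these shifts in the results below was not tested. In bulk RNA, fewer cells of a kind and less RNA per cell cannot be told apart.

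Trp53 and Cdkn2a did not differ between the lines past the threshold, with log2 differences between -0.01 and 0.09. Hypoxia raised most of the 10 genes in both lines, with Cdkn1a rising 12.02-fold in WT and 5.33-fold in TAZKo. Cdkn1a was also the gene whose order between the lines turned: it was 1.58-fold higher in TAZKo in normoxia and 1.42-fold lower in TAZKo in hypoxia. Sesn1 was the one member that fell by hypoxia in both lines past the threshold.

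**Figure D1:**
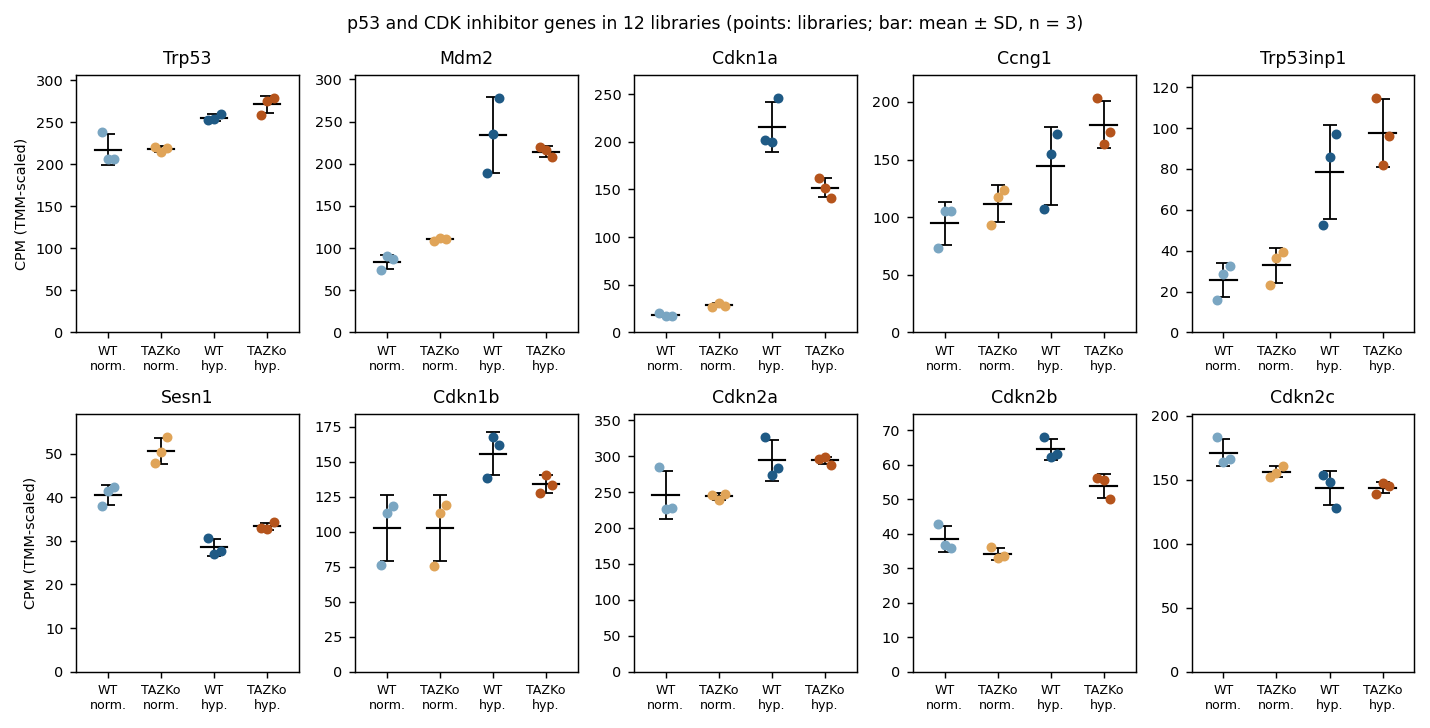
Each panel shows one gene, with CPM after TMM scaling on the vertical axis (from 0) and the 4 groups on the horizontal axis; points are the 3 samples and bars the mean ± SD (n = 3). Cdkn1a sits at 16.8 to 30.6 CPM in normoxia and 142 to 246 CPM in hypoxia, while Trp53 and Cdkn2a sit at matching heights in WT and TAZKo.

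Whether the lines differ in the 2 genes most often lost in fibroblast culture was asked first. Trp53 (ENSMUSG00000059552, GRCm38 chr11:69580359-69591873, plus strand) had 238, 206 and 206 CPM in WT normoxia samples 1 to 3 and 220.4, 214 and 219 CPM in TAZKo normoxia. After hypoxia it had 252, 254 and 259.7 CPM in WT and 259, 275 and 279 CPM in TAZKo. The WT and TAZKo values overlapped in both conditions, and every hypoxic sample was above every normoxic sample. The log2 difference of TAZKo from WT was 0.006 in normoxia (95% interval -0.13 to 0.14, edgeR adjusted p = 0.956) and 0.09 in hypoxia (-0.05 to 0.22, adjusted p = 0.323). With 3 samples a group, differences of the sizes inside these intervals are not excluded. Up to 7.43% of the 50-base words of the longest protein-coding Trp53 transcript also occur in the pseudogene Trp53-ps, so a small share of its reads may be assigned uncertainly.

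Cdkn2a (ENSMUSG00000044303, GRCm38 chr4:89274471-89294653, minus strand) encodes both p16INK4a, a CDK4 and CDK6 inhibitor, and ARF, which restrains Mdm2. It had 285, 226 and 228 CPM in WT normoxia and 246, 239 and 248 CPM in TAZKo normoxia. In hypoxia the values were 326, 273 and 283 CPM in WT and 295, 298.5 and 288 CPM in TAZKo. The lines overlapped in both conditions. The log2 difference of TAZKo from WT was -0.01 in normoxia (95% interval -0.20 to 0.18, edgeR adjusted p = 0.939) and -0.001 in hypoxia (-0.19 to 0.19, adjusted p = 0.994). The 2 annotated transcripts start at 89294653 (the ARF first exon) and 89282192 (the p16INK4a first exon) and share later exons, so the count per gene does not say which product the reads come from.

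Per kilobase of exon, Cdkn2a was the highest of the 10 genes, with a mean of 230.1 CPM per kb over the 12 samples, at the 99.5th percentile of the 14382 tested genes with a length. Trp53 (59.4 CPM per kb) and Cdkn2c (57.2) followed, well below it and close to each other. Their order was not the same in every group. In WT normoxia Cdkn2c had 63.7 ± 3.89 (SD, n = 3) and Trp53 53.6 ± 4.57 CPM per kb, and in WT hypoxia 53.4 ± 5.03 and 63.1 ± 0.975. Next came Ccng1 (37.8), Cdkn2b (34.3), Mdm2 (31.6), Cdkn1a (29.1) and Cdkn1b (27.2), whose ranges over the 12 samples overlapped. Sesn1 (9.60) and Trp53inp1 (9.05) were the lowest of these means, which pool groups that differ. In normoxia Cdkn1a was lower than Sesn1, with 5.06 ± 0.505 against 10.2 ± 0.557 CPM per kb in WT and 8.01 ± 0.546 against 12.7 ± 0.755 in TAZKo. Expression of Cdkn2a, Cdkn2b and the neighbouring gene Mtap in all 12 samples shows transcripts from across this stretch of chromosome 4 in both lines. Mtap, an enzyme of methionine salvage that is often lost with Cdkn2a, had 137 to 196 CPM.

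Hypoxia raised Trp53 by 0.23 on the log2 scale in WT (SE 0.06, edgeR test, adjusted p = 0.00624) and by 0.31 in TAZKo (SE 0.06, adjusted p = 0.00108). Cdkn2a rose by 0.26 in WT (SE 0.09, adjusted p = 0.0252) and by 0.27 in TAZKo (SE 0.09, adjusted p = 0.0239), and its WT groups overlapped. These 2 rises are small. The WT rise of Trp53 missed the threshold when libraries were scaled by their total alone (0.13, adjusted p = 0.125). The same held with no filter (0.16, adjusted p = 0.126) and with the 6 compared samples alone (0.18, adjusted p = 0.0941). It also missed it without WT normoxia sample 2 or 3 or WT hypoxia sample 2 or 3 (0.14 to 0.18). In WT the Cdkn2a rise missed it in 10 of the 12 fits that left out a sample of either line (lowest 0.12, without WT hypoxia sample 1). These 10 included every fit without a TAZKo sample, in which the WT rise was 0.20. In TAZKo the Cdkn2a rise missed it in 6 of 12 (lowest 0.22). In WT the Cdkn2a rise also missed the threshold with upper quartile scaling (adjusted p = 0.0941), library totals alone (0.186), no filter (0.0667) and the 6 compared samples alone (0.167). In TAZKo it missed it with library totals alone (0.17, adjusted p = 0.132).

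In the comparison of lines in normoxia, 3 of the 10 genes passed the threshold, all higher in TAZKo, and none was lower (0 lower at an unadjusted p under 0.05, and 0 with DESeq2). Over all genes tested, 30.4% passed, 15.6% higher and 14.9% lower. In hypoxia 3 of 10 again passed, 1 higher (Sesn1) and 2 lower (Cdkn1a and Cdkn2b), against 32.8% of all genes, 15.8% higher and 16.9% lower. Both shares are near those of all genes. The median log2 difference of the 10 genes was 0.12 in normoxia and 0.001 in hypoxia, beside 0.01 and -0.01 over all genes.

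Hypoxia against normoxia gave calls for all 10 genes in WT, 8 higher and 2 lower (Sesn1 and Cdkn2c). Of all genes, 51% passed in WT, 26% higher and 25% lower. In TAZKo 8 of 10 passed, 7 higher and 1 lower (Sesn1), against 43.8% of all genes, 22.2% higher and 21.6% lower. Cdkn1b and Cdkn2c did not pass in TAZKo. The median log2 difference of the 10 genes was 0.61 in WT and 0.52 in TAZKo, against 0.009 and -0.009 over all genes. These 2 comparisons share no samples. The WT count fell to 6 without WT hypoxia sample 3, when the rises of Trp53, Cdkn2a, Ccng1 and Cdkn1b missed the threshold. The WT count was 8 with library totals alone, with no filter and with the 6 compared samples alone. Scaling by library total alone lowered the median of all genes by about 0.1 in the hypoxia comparisons (to -0.10 in both lines), and all called members but Trp53 and Cdkn2a in WT and Cdkn2a in TAZKo kept their calls under it.

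**Figure D2:**
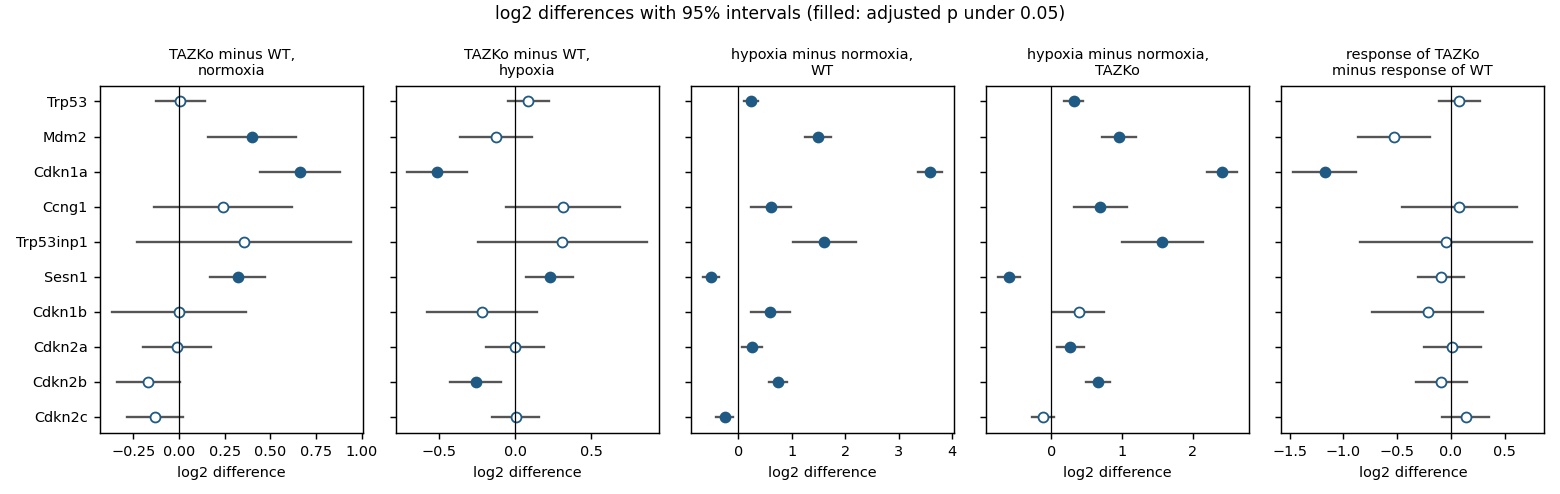
Points are log2 differences from the edgeR fit and lines their 95% intervals, with 1 panel per comparison (each horizontal axis has its own range); filled points passed an adjusted p of 0.05. Cdkn1a lies right of 0 in normoxia and left of 0 in hypoxia in the comparison of lines, and is the only filled point (-1.17) in the last panel.

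Cdkn1a (ENSMUSG00000023067, GRCm38 chr17:29090976-29100727, plus strand) encodes p21, the CDK inhibitor best known as a p53 target. It had 20.04, 16.8 and 17.1 CPM in WT normoxia and 26.9, 30.6 and 27.8 CPM in TAZKo normoxia. After hypoxia it had 202, 199 and 246 CPM in WT and 162, 152 and 142 CPM in TAZKo. No 2 of the 4 groups overlapped, and the order of the lines in normoxia was the opposite of that in hypoxia. The log2 difference of TAZKo from WT was 0.66 in normoxia (SE 0.10, edgeR test, adjusted p = 0.000239) and -0.51 in hypoxia (SE 0.09, adjusted p = 0.000792). The rise with hypoxia was 3.59 in WT (SE 0.10, adjusted p = 1.27e-11) and 2.41 in TAZKo (SE 0.10, adjusted p = 4.16e-10). The difference between these rises was -1.17 (95% interval -1.47 to -0.88, adjusted p = 0.000601), a 2.26-fold smaller response in TAZKo. It was the only 1 of the 10 genes past the threshold for this comparison, in which 2.43% of all genes passed, 0.722% higher and 1.71% lower. No member was higher (0 at an unadjusted p under 0.05 and 0 with DESeq2). All of these Cdkn1a calls held in the 12 fits that left out a sample. A gene model on the opposite strand that the tables do not list overlaps 273 exonic bases of Cdkn1a (10.5% of the 50-base words of its longest protein-coding transcript), and whether the counting used strand is not given in the sources used here.

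Mdm2 (ENSMUSG00000020184, GRCm38 chr10:117688875-117710758, minus strand), the ligase that marks p53 for degradation and is itself induced by p53, had 74.1, 90.0 and 86.7 CPM in WT normoxia and 109, 112 and 111 CPM in TAZKo normoxia. It had 189, 235 and 278 CPM in WT hypoxia and 219.7, 216 and 208 CPM in TAZKo hypoxia. The lines did not overlap in normoxia and overlapped in hypoxia, where WT samples spread widely. TAZKo was 0.40 higher in normoxia (SE 0.11, edgeR test, adjusted p = 0.0148), a call that was lost without TAZKo normoxia sample 2 or 3 (adjusted p = 0.0694 and 0.0678). In hypoxia the difference was -0.13 (95% interval -0.36 to 0.11, adjusted p = 0.416). The rise was 1.48 in WT (SE 0.11, adjusted p = 1.71e-07) and 0.96 in TAZKo (SE 0.11, adjusted p = 1.42e-05). The difference between the rises, -0.53 (95% interval -0.87 to -0.19), missed the threshold with edgeR (adjusted p = 0.107) and passed it with DESeq2 (adjusted p = 0.0421) or without WT hypoxia sample 1 (-0.64, adjusted p = 0.0105).

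The 2 members on chromosome 10, Mdm2 and Sesn1, sit where genes in general were higher in TAZKo: the median of 676 tested genes of chromosome 10 was 0.31 in normoxia and 0.29 in hypoxia. Relative to that median, Mdm2 was at 0.09 in normoxia and -0.41 in hypoxia, and Sesn1 at 0.006 and -0.06. Cdkn1a on chromosome 17 was at 0.67 and -0.49 by the same measure, close to its values without it. On chromosome 4, with medians of 0.13 in both conditions, Cdkn2a was at -0.14 and -0.13, Cdkn2b at -0.30 and -0.38, Cdkn2c at -0.26 and -0.12, and Trp53inp1 at 0.23 and 0.19.

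Sesn1 (ENSMUSG00000038332, GRCm38 chr10:41809935-41908424, plus strand) encodes sestrin 1, a stress protein that restrains mTORC1 signalling. It had 38.0, 41.3 and 42.3 CPM in WT normoxia and 47.8, 50.4 and 53.75 CPM in TAZKo normoxia. In hypoxia it had 30.7, 27.05 and 27.7 CPM in WT and 33.0, 32.7 and 34.3 CPM in TAZKo. No groups overlapped within a comparison. It fell by 0.51 on the log2 scale with hypoxia in WT (SE 0.07, edgeR test, adjusted p = 5.04e-05) and by 0.60 in TAZKo (SE 0.07, adjusted p = 1.44e-05), opposite to Cdkn1a and Mdm2. TAZKo was higher by 0.32 in normoxia (SE 0.07, adjusted p = 0.0034) and by 0.23 in hypoxia (SE 0.07, adjusted p = 0.0263), the latter lost in 5 of 12 fits without a sample.

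Ccng1 (ENSMUSG00000020326, GRCm38 chr11:40748552-40755311, minus strand) encodes cyclin G1, a p53 target that recruits a phosphatase to Mdm2. It had 73.03, 105 and 105.5 CPM in WT normoxia and 93.4, 117 and 124 CPM in TAZKo normoxia, and 107, 154 and 172 CPM in WT hypoxia and 203, 163.5 and 174 CPM in TAZKo hypoxia. It rose by 0.61 in WT (SE 0.18, edgeR test, adjusted p = 0.00983) and by 0.69 in TAZKo (SE 0.17, adjusted p = 0.00561). The lines overlapped in both conditions, with log2 differences of 0.24 in normoxia (adjusted p = 0.339) and 0.32 in hypoxia (adjusted p = 0.187). With no filter the difference in hypoxia passed the threshold (0.34, adjusted p = 0.000381). The WT rise missed the threshold without WT hypoxia sample 2 or 3 (adjusted p = 0.0598 and 0.0953).

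Trp53inp1 (ENSMUSG00000028211, GRCm38 chr4:11156431-11174379, plus strand), a p53-induced nuclear protein with roles in cell death and autophagy, had 16.0, 28.6 and 32.3 CPM in WT normoxia and 23.0, 36.3 and 39.2 CPM in TAZKo normoxia. In hypoxia it had 52.6, 85.7 and 96.9 CPM in WT and 115, 81.8 and 96.2 CPM in TAZKo. Its rise was 1.61 in WT (SE 0.27, edgeR test, adjusted p = 0.000227) and 1.57 in TAZKo (SE 0.27, adjusted p = 0.000342), the largest among the members after Cdkn1a in both lines. The responses differed by -0.05, with a wide 95% interval of -0.85 to 0.76. The lines overlapped in both conditions, while every hypoxic sample of a line was above its normoxic samples. TAZKo differed from WT by 0.36 in normoxia (adjusted p = 0.356) and by 0.31 in hypoxia (adjusted p = 0.392). Both differences passed the threshold with no filter (0.33 in each, adjusted p = 0.00281 and 0.00124). In 3 of the 4 groups sample 1 was the lowest for Trp53inp1, Ccng1 and Mdm2.

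Cdkn1b (ENSMUSG00000003031, GRCm38 chr6:134920401-134925513, plus strand), which encodes p27, had 75.95, 114 and 119 CPM in WT normoxia and 75.6, 113 and 119 CPM in TAZKo normoxia, nearly the same values number by number. In hypoxia it had 138.5, 167.5 and 162 CPM in WT and 128, 140.6 and 133.5 CPM in TAZKo. The lines overlapped in both conditions, and hypoxic samples lay above normoxic ones in each line. Hypoxia raised it by 0.60 in WT (SE 0.17, edgeR test, adjusted p = 0.00919). The difference in TAZKo was 0.38 (SE 0.17, adjusted p = 0.0842). It passed with DESeq2 (0.39, adjusted p = 0.0464), with no filter (0.35, adjusted p = 0.000117), with the 6 compared samples alone (0.39, adjusted p = 0.0169) and without WT normoxia sample 1 (0.38, adjusted p = 0.0179). The WT call was lost without WT hypoxia sample 2 or 3 (adjusted p = 0.0606 and 0.0522).

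Cdkn2b (ENSMUSG00000073802, GRCm38 chr4:89306299-89311039, minus strand) encodes p15INK4b, an inhibitor of CDK4 and CDK6 induced by TGF-beta, and lies beside Cdkn2a. It had 42.7, 36.7 and 35.9 CPM in WT normoxia and 36.1, 32.9 and 33.5 CPM in TAZKo normoxia, and 67.98, 62.3 and 63.2 CPM in WT hypoxia and 56.1, 55.55 and 49.9 CPM in TAZKo hypoxia. Hypoxia raised it by 0.75 in WT (SE 0.08, edgeR test, adjusted p = 3.59e-06) and by 0.66 in TAZKo (SE 0.08, adjusted p = 1.87e-05), and the groups did not overlap. TAZKo was lower by 0.26 in hypoxia (log2 difference -0.26, SE 0.08, adjusted p = 0.0196), a call that was lost without WT hypoxia sample 1 or TAZKo hypoxia sample 3. In normoxia the difference was -0.17 (adjusted p = 0.128), and with the replicate number as a block it was -0.17 with an adjusted p of 0.0470.

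Cdkn2c (ENSMUSG00000028551, GRCm38 chr4:109660876-109667189, minus strand) encodes p18INK4c. It had 183, 164 and 166 CPM in WT normoxia and 152, 155.5 and 160.6 CPM in TAZKo normoxia, and 154, 148 and 128 CPM in WT hypoxia and 139, 147 and 145 CPM in TAZKo hypoxia. It fell by 0.26 with hypoxia in WT (SE 0.07, edgeR test, adjusted p = 0.00845). The TAZKo difference was -0.12 (SE 0.07, adjusted p = 0.194), and the lines differed by -0.13 in normoxia (adjusted p = 0.184) and 0.004 in hypoxia (adjusted p = 0.975). Another INK4 gene, Cdkn2d, was lower in TAZKo by 0.34 in normoxia (-0.34, adjusted p = 0.0259) and by 0.31 in hypoxia (-0.31, adjusted p = 0.0378). Cdkn1c had 0 counts in every sample, and the p53 relatives Trp63 and Trp73 had at most 12 and 3 counts.

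The start sites of the p53 targets among the members were examined for letters of the p53 binding consensus, since several of these genes responded to hypoxia. RefSeq windows (GRCm38.p6, 250 bases before to 50 after a start) were found for 9 of the 10 members, 13 windows in all, and none for Trp53inp1. The p53 consensus decamer, searched without mismatch on both strands, occurs in 8.36% of 32851 windows of the same length and in windows of 5 members. A pair of decamers separated by 0 to 13 bases occurs in 0.0731% of windows, and among the members in that of the upstream Cdkn1a start. The upstream stretches around each match are shown 5′ to 3′ on the gene's strand, with the decamers in capitals, because they show which of the responding genes carry such letters near a start.
Cdkn1a, chr17:29090866-29090977, plus strand: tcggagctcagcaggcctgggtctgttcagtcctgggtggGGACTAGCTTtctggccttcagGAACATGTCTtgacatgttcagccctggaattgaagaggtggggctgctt
Mdm2, chr10:117710895-117710984, minus strand: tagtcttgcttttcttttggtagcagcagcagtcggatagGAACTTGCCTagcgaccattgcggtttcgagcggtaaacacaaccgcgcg
Ccng1, chr11:40755422-40755511, minus strand: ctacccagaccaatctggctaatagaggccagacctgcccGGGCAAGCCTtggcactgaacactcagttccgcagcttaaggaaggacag
Sesn1, chr10:41887226-41887315, plus strand: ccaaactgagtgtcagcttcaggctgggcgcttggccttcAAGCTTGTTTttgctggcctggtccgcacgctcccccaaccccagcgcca
Trp53, chr11:69580244-69580333, plus strand: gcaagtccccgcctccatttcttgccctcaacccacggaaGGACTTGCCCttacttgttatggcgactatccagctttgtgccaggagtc
In Cdkn1a the decamers begin 73 and 51 bases before the start and are 12 bases apart. Near matches with a mismatch, also those next to these decamers, were not searched for and are not marked. Sesn1, which fell with hypoxia, and Mdm2 and Ccng1, which rose, each hold 1 decamer. That of Sesn1 is at its downstream start, and the window of its upstream start holds no decamer. The core letters ACGTG or GCGTG of hypoxia response elements, searched on both strands (a CACGTG E-box also holds them), occur in 43.8% of all windows and in 10 of the 13 member windows. A match of letters is a description of the sequence and no evidence of binding.

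The 28 other p53 targets on a list of genes that p53 is known to induce gave 11 calls between the lines in normoxia (8 higher and 3 lower in TAZKo) and 12 in hypoxia (8 higher and 4 lower). Over all genes 30.4% and 32.8% passed. The list's median log2 difference was 0.16 in normoxia and 0.06 in hypoxia, beside 0.01 and -0.01 over all genes. Sesn2, a sestrin that also responds to metabolic stress, was higher in TAZKo by 1.76 in normoxia (SE 0.11, edgeR test, adjusted p = 5.88e-08). Perp, a membrane protein of cell adhesion and death located on chromosome 10, was higher by 1.72 in both conditions (SE 0.09, adjusted p = 1.28e-08 and 8.69e-09), and Eda2r, a death receptor, by 1.103 in hypoxia. Fdxr, a mitochondrial ferredoxin reductase, was lower by 0.68 in normoxia (-0.68, adjusted p = 0.00118) and Tigar, a regulator of glycolysis, by 0.32 (-0.32, adjusted p = 0.00775). In hypoxia Btg2, an antiproliferative protein, stood at -0.62 and Gadd45a, a growth arrest protein, at -0.48, the latter with overlapping groups.

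With hypoxia, 19 of the 28 targets passed in each line, 15 higher and 4 lower, with medians of 0.41 in WT and 0.32 in TAZKo. Of all genes 51% passed in WT and 43.8% in TAZKo, with medians of 0.009 and -0.009. Gdf15, a stress cytokine, rose by 3.31 in WT and 2.45 in TAZKo, from 1 to 16 counts a sample in normoxia. Plk2, a stress-induced kinase, rose by 2.73 in WT and 1.42 in TAZKo. Fdxr fell by 1.80 and 1.21. Xpc, a DNA repair protein, fell by 0.47 in WT, and Rrm2b, a ribonucleotide reductase subunit, fell by 0.55 in TAZKo (adjusted p = 0.0492).

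The responses of 3 targets differed between the lines past the threshold, all smaller in TAZKo, and none was larger (3 at an unadjusted p under 0.05, and 1 with DESeq2). Plk2 differed by -1.31 (SE 0.19, edgeR test, adjusted p = 0.00319), Gadd45a by -1.21 (SE 0.20, adjusted p = 0.00531) and Sesn2 by -1.12 (SE 0.15, adjusted p = 0.00185). All 3 began higher in TAZKo in normoxia, like Cdkn1a. Plk2 went from 35.2 ± 2.62 to 234 ± 59.6 CPM with hypoxia in WT (SD, n = 3), and from 63.5 ± 2.70 to 171 ± 3.79 CPM in TAZKo. Sesn2 went from 37.6 ± 3.75 to 88.3 ± 14.7 CPM in WT, and from 127 ± 8.50 to 138 ± 4.16 CPM in TAZKo.

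**Figure D3:**
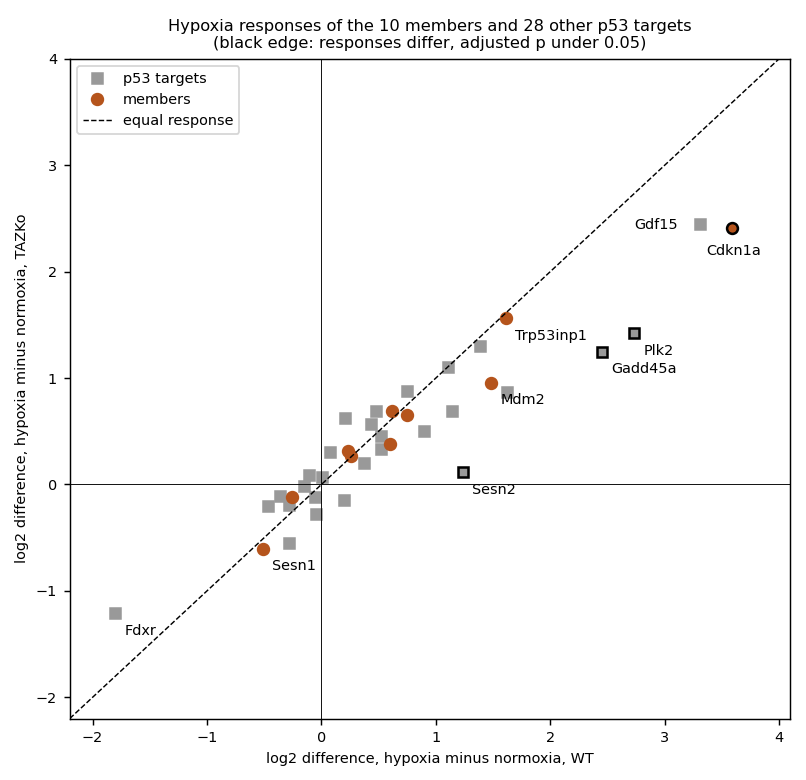
Each point is a gene, with its log2 difference between hypoxia and normoxia in WT (horizontal) and in TAZKo (vertical); circles are the 10 members, squares the 28 other p53 targets, and the dashed line marks equal responses. The 4 genes with a black edge (Cdkn1a, Plk2, Gadd45a and Sesn2) lie below the line and differ past the threshold.

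Of 20 genes that regulate p53, 14 passed with hypoxia in WT (11 higher and 3 lower, median 0.21) and 10 in TAZKo (7 higher and 3 lower, median 0.16), where 51% and 43.8% of all genes passed. Ppp1r13l, the inhibitory ASPP protein, rose by 1.31 in WT (SE 0.09, edgeR test, adjusted p = 4.36e-08) and by 1.498 in TAZKo (SE 0.09, adjusted p = 1.66e-08), and the ubiquitin ligase gene Rchy1 rose by 0.57 in both. Trp53bp1, a DNA damage adaptor, fell by 0.83 and 0.68, and Ppp1r13b, an activating ASPP protein, fell by 0.80 and 0.59. Between the lines, where 30.4% and 32.8% of all genes passed, 4 regulators did in normoxia (1 higher and 3 lower) and 3 in hypoxia (0 higher, also 0 at an unadjusted p under 0.05 and 0 with DESeq2). Sirt1, a deacetylase of p53, was higher in TAZKo by 0.63 in normoxia (adjusted p = 0.0162), while Trp53bp2 stood at -0.35 in normoxia and -0.32 in hypoxia, Ppp1r13b at -0.43 in normoxia and the ubiquitin ligase gene Cop1 at -0.33 in hypoxia. No difference between the regulators' responses passed (0 with edgeR, 0 at an unadjusted p under 0.05 and 0 with DESeq2).

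Downstream of the CDK inhibitors, 22 cyclin, CDK, RB and E2F genes gave 9 calls between the lines in normoxia (7 higher and 2 lower) and 8 in hypoxia (5 higher and 3 lower), where 30.4% and 32.8% of all genes passed. The largest increases among them were in 2 D-type cyclins, partners of CDK4 and CDK6. Ccnd2 had 33.9 ± 0.885 CPM in WT normoxia and 91.7 ± 4.75 CPM in TAZKo normoxia (log2 difference 1.44, SE 0.11, edgeR adjusted p = 4.60e-07), and 79.8 ± 15.2 and 135 ± 5.04 CPM in hypoxia (0.76, SE 0.11, adjusted p = 0.000104). Ccnd1 was higher in TAZKo by 1.26 and 1.14, while Ccnd3 stood at -0.38 and E2f4 at -0.42 in normoxia and Ccne1 at -0.41 in hypoxia. With hypoxia, 9 of the 22 passed in WT (6 higher and 3 lower) and 15 in TAZKo (9 higher and 6 lower), against 51% and 43.8% of all genes. The Ccnd2 response was smaller in TAZKo by 0.68 (log2 difference -0.68, SE 0.15, adjusted p = 0.0323), and no other gene of the 22 passed (1 higher and 2 lower in all at an unadjusted p under 0.05, and only 1 with DESeq2). Ccne2, a cyclin of S phase entry, rose with hypoxia by 0.997 in WT and 0.64 in TAZKo, and E2f5 fell by 0.83 and 0.59. E2f3 fell by 0.27 in WT and Ccnb1, the mitotic cyclin B1, by 0.44 in TAZKo.

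Of 17 listed regulators of the Cdkn2a locus, mainly Polycomb proteins and transcription factors, 16 were tested. Between the lines 4 passed in normoxia (3 higher and 1 lower) and 5 in hypoxia (3 higher and 2 lower), against 30.4% and 32.8% of all genes. Cbx7, a Polycomb protein that represses the locus, was higher in TAZKo by 0.52 in normoxia (edgeR adjusted p = 0.00335), Id1 by 0.39 in both conditions and Ring1 by 0.36 in hypoxia, and Ezh2, the Polycomb methyltransferase, was lower in hypoxia (-0.52, adjusted p = 0.000323). Tbx3, a repressor of the locus, had 12 to 18 counts in WT normoxia samples and 0 to 1 in TAZKo, at least 5.55-fold lower in TAZKo against a floor of 3 counts per library, a difference at very low expression. With hypoxia 7 passed in each line (5 higher and 2 lower), against 51% of all genes in WT and 43.8% in TAZKo. Ets2, an activator of p16INK4a, rose by 1.25 and 0.97, and Id1, its inhibitor, fell by 0.55 in both. The Polycomb gene Suz12 rose by 0.79 in WT, the H3K27 demethylase gene Kdm6b rose by 0.79 in TAZKo, and Ring1 fell by 0.54 and 0.46. No difference between the responses passed (0 with edgeR, 2 lower at an unadjusted p under 0.05, and 0 with DESeq2).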

How the data were processed

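The authors deposited 1 table of whole-number read counts per Ensembl gene for each of 12 samples, on the mm10 build per the submitters' processing notes. The aligner, counter and annotation are not given in the sources used here. Of 48709 identifiers, 48349 matched symbols (GENCODE M21). Counts were filtered with filterByExpr, scaled by TMM and fitted with edgeR 4.0.16 (R 4.3.3, limma 3.58.1) quasi-likelihood over all 12 samples, 1 coefficient per group. P-values were adjusted by Benjamini-Hochberg over 14408 genes within a comparison (threshold 0.05). The common biological coefficient of variation was 8.62%. Nothing says that samples came from separate cultures, so p-values measure the spread between these samples. No replicate pair agreed within sampling noise (chi-square per degree of freedom 2.82 to 41.6, highest for WT normoxia sample 1).

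The members and lists were chosen with earlier results of these data known. Named genes were the members, Taz, Mtap and, per list and comparison, the 2 largest and 2 most negative called differences; Trp63, Trp73, Cdkn1c and the Sesn2 response fall outside that rule and were chosen after their values were seen. Alternatives were other scalings, DESeq2 1.42.0, other filters, the replicate block, lane as a covariate, the 6 compared samples alone and leaving out each sample. In every group sample 1 was on lane 4 and sample 3 on lane 5. Sample 2 was on lane 4 in normoxia and lane 5 in hypoxia, so lane partly follows oxygen and sample number. The script was tested on simulated data. Same-numbered samples deviated together in every pair for WT against TAZKo in normoxia (r 0.354, 0.149 and 0.228) and for WT hypoxia against normoxia (0.368, 0.204 and 0.152), but not in the other comparisons. The labels do not say what the numbers stand for.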

Additional observations from a re-analysis of the deposited data

Results flagged for a closer look

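The hypoxia responses of 5 genes differed between TAZKo and WT by a test of the difference itself (edgeR adjusted p under 0.05), each smaller in TAZKo on the log2 scale: Cdkn1a by -1.173, Plk2 by -1.31, Gadd45a by -1.207, Sesn2 by -1.121 and Ccnd2 by -0.6759. All 5 were higher in TAZKo than in WT in normoxia. In hypoxia Cdkn1a, Plk2 and Gadd45a were lower in TAZKo (the samples of Plk2 and Gadd45a overlapped), whereas Sesn2 and Ccnd2 were still higher.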

How the results depend on the processing

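Of 1164 values recomputed under alternatives, 1038 were labelled as unchanged. For log2 differences this meant the same direction and side of the threshold. For counts of members called it meant a change within a set ratio. For differences minus the median of the chromosome it meant a shift smaller than the SE. The near-zero difference of Trp53 between the lines in normoxia changed sign with DESeq2 size factors (-0.01185), upper quartile scaling (-0.01323), the DESeq2 test (-0.01168), no filter (-0.02399) and a mean of at least 5 CPM (-0.0002152). That of Cdkn2a in hypoxia changed sign with upper quartile scaling (0.01697), library size alone (0.01986), no filter (0.01972), the replicate block (0.004182), a mean of at least 5 CPM (0.01196), lane as a covariate (0.002074) and the 6 samples compared (0.0148). No such value passed the threshold. Also reversed were Cdkn1b in normoxia with library size alone (0.008955), the difference of Trp53inp1 responses with no filter (0.001069) and with the replicate block (0.01315), and Sesn1 in hypoxia minus the median of its chromosome (-0.05743). That last alternative, chosen after seeing the data, put Cdkn2a at -0.14 in normoxia and -0.1263 in hypoxia. Members whose responses differ numbered 2 with DESeq2, no filter or the replicate block, Mdm2 being the second (block: -0.5208, adjusted p = 0.0440). With no filter, members called between the lines numbered 4 in normoxia, with Trp53inp1 added, and 5 in hypoxia, with Ccng1 and Trp53inp1 added. In comparisons where the numbers do not pair the samples, the block also called Cdkn1b with hypoxia in TAZKo (0.4089), as did DESeq2 (0.3856), no filter (0.3547) and the 6 samples compared (0.3859). Leaving out each sample gave 1 to 2 members for the difference of responses, 6 to 10 for hypoxia in WT and 1 to 3 for the lines in hypoxia (1 without TAZKo hypoxia sample 3). Log2 ranges over the same fits were -0.0647 to 0.07865 for Trp53 and -0.1757 to 0.1491 for Cdkn1b between the lines in normoxia. Those of Cdkn2a were -0.1017 to 0.1048 in normoxia, -0.05691 to 0.06709 in hypoxia and -0.1062 to 0.1131 for the difference of responses. In hypoxia Cdkn2c ranged from -0.07889 to 0.04449 and Mdm2 from -0.2718 to 0.008256. The difference of responses ranged from -0.07504 to 0.2505 for Ccng1 and from -0.2425 to 0.1921 for Trp53inp1. The cause of these changes was not tested. Floors and intervals cover counting error and sample spread only.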

Other observations

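The tested genes whose log2 CPM followed a member most closely over the 12 samples were Pkp2, Fam57a and Whamm for Cdkn1a (Pearson r 0.998, 0.997 and 0.994), Zfp687, Dnm2 and Plekhm1 for Cdkn2a (0.989, 0.974 and 0.971), and Trim3, Gm13387 and Rtf2 for Trp53 (0.973, 0.970 and 0.965). These are descriptions over samples that share the same groups, and say nothing of shared function. Sample 1 was the lowest of its group for Cdkn1b in 4 of 4 groups. For Cdkn2a and Cdkn2b it was the lowest in 0 of 4 groups.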
